A study of Capra hircus with 6 samples.

Results

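Secreted proteins of skin glands were followed across goat skin libraries: mucin-like protein 1 (MUCL1), a prolactin-inducible protein homolog (LOC102182197), mammaglobin-A (LOC102180465), lactotransferrin, also called lactoferrin (LTF), and peptidoglycan recognition protein 1 (PGLYRP1). They are 5 of the 26951 genes in the deposited table, and all 5 had enough reads to enter the fit across 15778 genes. They were chosen by their read counts in these same libraries, which an earlier look had found higher in black-coated skin. Their difference between black- and white-coated skin is therefore given as a description, with no test.

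The skin, which contained hair follicles, came from crossbred goats (Boer crossed with Macheng Black) whose head is black and body white. The 6 libraries comprised 3 from a black-coated region (black 1, 2 and 3) and 3 from a white-coated region (white 4, 5 and 6), each made from total RNA after ribosomal RNA was depleted. The sources used here do not give the body site of each sample or the age and sex of the goats. The series text speaks of a crossbred goat in the singular and gives no number of animals. Coat colour and body site therefore cannot be told apart. The p-values reflect the spread among these 6 samples, which may be technical in part. The libraries held 12648817 to 22085079 reads in named genes.

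Most hairy skin of hoofed animals carries apocrine sweat glands, coiled tubes that open into the hair follicle and lie beside the sebaceous gland. Their secretory cells release proteins and lipids together with salt and water, and they share many products with the mammary, lacrimal and salivary glands. Mucin-like protein 1 is a small glycosylated secreted protein known in humans from breast, salivary and sweat glands. Prolactin-inducible protein, also called gross cystic disease fluid protein, and mammaglobin-A, a small lipid-binding protein of the secretoglobin family, are classical products of human apocrine and mammary epithelium. Lactotransferrin binds iron and restrains bacteria in milk, tears and other secretions, and peptidoglycan recognition protein 1 binds bacterial cell wall. Neutrophils store the last pair in their granules as well, so these genes do not by themselves mark a gland.

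One library stood apart before any of these genes was considered. Black 1 held 1348 CPM (reads scaled to an adjusted library size) summed over hair shaft and inner root sheath genes, against 20656 to 28686 in the other 5 libraries. It also held 1222 CPM over macrophage genes (159 to 525 elsewhere), 605 CPM over mast cell genes (108 to 251 elsewhere) and 232 CPM over neutrophil genes (61.0 to 83.2 elsewhere). Reads of the Y-linked gene LOC108634721 numbered 1, 688 and 0 in black 1, 2 and 3, and 934, 801 and 767 in white 4, 5 and 6, so the libraries did not all come from 1 animal, which conflicts with the singular in the series text. Black 1 and 3 may thus differ in sex from the other libraries, so sex is partly mixed with coat group. For the 5 genes, ratios are therefore given also without black 1, and for black 2, the black library that carried Y-linked reads as the white ones did. Several lists of other genes are also described without black 1. In the hair shaft list, 0 of 16 tested genes were higher in every black library than in any white one, beside 3.81% of all genes tested. Without black 1 there were 8, beside 13.6% of all genes tested.

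MUCL1 had the highest level of the 5 in every library, per length as well as in reads, except that LOC102182197 led it in reads in white 6. It reached 3043, 1719 and 395 CPM in black 1, 2 and 3, and 89.9, 33.7 and 16.6 CPM in white 4, 5 and 6. No white library came near a black one, although the black libraries themselves spanned 7.71-fold and the white ones 5.43-fold. The group means were 1719 ± 1324 and 46.7 ± 38.3 CPM (SD, n = 3 each), a ratio of 36.8, with a fitted log2 fold change of 5.20 (SE 0.98). Without black 1 the ratio was 22.6, and black 2 alone stood 36.8-fold above the white mean. Without white 4 the log2 ratio of the means was 6.09 in place of 5.20. By FPKM, which also divides by transcript length, MUCL1 ranked 2, 22 and 140 among the genes of black 1, 2 and 3, at 6319, 2022 and 614 FPKM. In white 4, 5 and 6 it ranked 393, 948 and 1997, at 167, 61.9 and 29.2 FPKM. In black 1 this single small secreted protein took 0.339% of all reads in named genes, and in white 6 it took 0.00159%.

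The prolactin-inducible protein homolog LOC102182197 was second to MUCL1 in FPKM in each library (644, 297 and 300.2 FPKM in black 1, 2 and 3, and 78.3, 41.6 and 27.1 FPKM in white 4, 5 and 6) and had the smallest span within black skin of the 5. It stood at 399, 220.1 and 212 CPM in black 1, 2 and 3, a span of 1.88-fold. White 4, 5 and 6 held 50.5, 29.2 and 20.3 CPM. The lowest black library was 4.20-fold above the highest white one, the smallest such gap of the 5 genes. Means were 277 ± 106 and 33.3 ± 15.5 CPM (SD, n = 3 each), a ratio of 8.31 with a log2 fold change of 3.05 (SE 0.43), and the ratio was 6.49 without black 1 and 6.60 for black 2 alone.

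Mammaglobin-A was present at a trace. LOC102180465 had 46, 24 and 64 reads in black 1, 2 and 3, which is 3.26, 1.72 and 2.77 CPM, and 3, 2 and 5 reads in white 4, 5 and 6, which is 0.171, 0.117 and 0.354 CPM. The groups lay apart, yet all 3 white libraries together held 10 reads against 134. The ratio of mean CPM was 12.1, with a log2 fold change of 3.58 (SE 0.58), and the ratio of summed reads, scaled to library size, was 12.8 with an exact 95% interval of 6.73 to 27.2 that covers counting error only. The CPM ratio was 10.5 without black 1 and 8.04 for black 2 alone. Its 2 transcript rows carried the same reads, and the authors' FPKM placed nearly all of the black-skin signal on isoform X2, at 9.49, 3.72 and 7.14 FPKM in black 1, 2 and 3.

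LTF was the gene that rested most on black 1. It reached 175 CPM there against 14.8 and 19.7 CPM in black 2 and 3, a span of 11.8-fold, while white 4, 5 and 6 held 0.569, 1.64 and 1.91 CPM, or 10, 28 and 27 reads. The black libraries still all exceeded the white ones, and the gap between the lowest black and the highest white library, 7.76-fold, was the widest of the 5 genes. The ratio of means was 50.7 (69.7 ± 90.9 against 1.37 ± 0.71 CPM, SD, n = 3 each), with a log2 fold change of 5.67 (SE 1.18). It was 12.6 without black 1 and 10.8 for black 2 alone. The neutrophil and macrophage sums given above were also highest in black 1, and their part in the LTF level there was not tested.

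PGLYRP1 lay at 104, 49.9 and 36.9 CPM in black 1, 2 and 3. White 4, 5 and 6 were close together at 7.73, 6.86 and 5.59 CPM. Every black library was at least 4.77-fold above every white one. Means were 63.6 ± 35.6 and 6.73 ± 1.08 CPM (SD, n = 3 each), a ratio of 9.45 with a log2 fold change of 3.24 (SE 0.42), and the ratio was 6.45 without black 1 and 7.41 for black 2 alone.

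**Figure D1:**
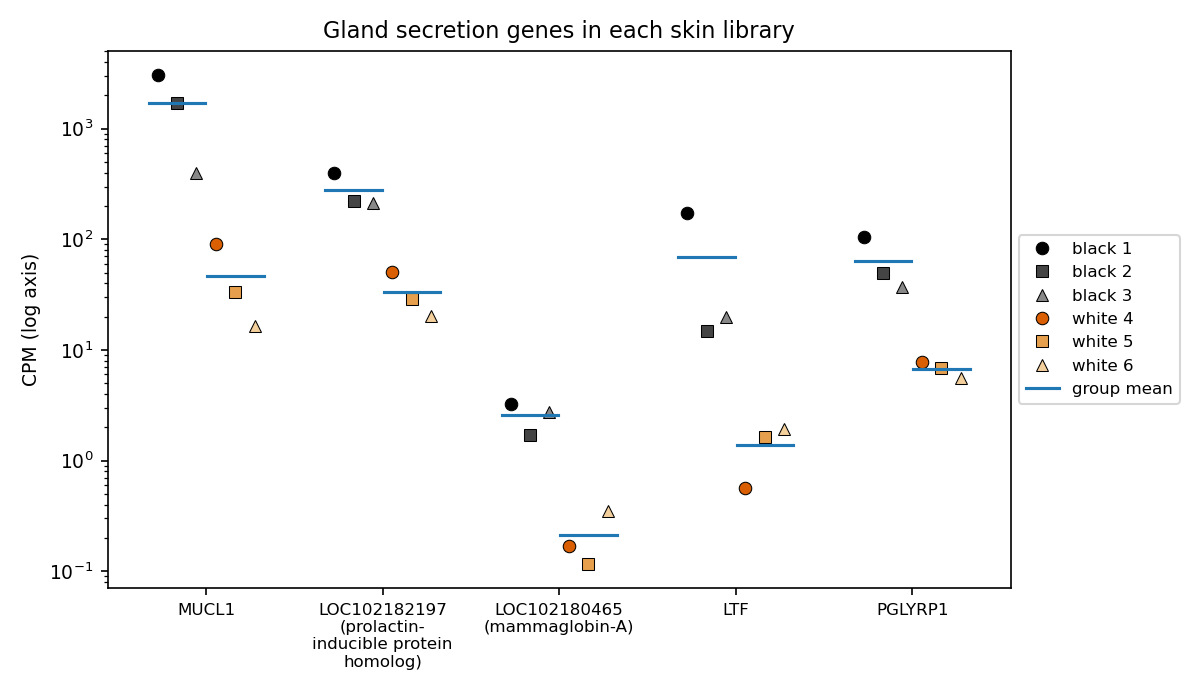
CPM on a log axis of the 5 gland secretion genes in each of the 6 libraries, with blue lines at the mean of each group. For every gene the 3 black libraries lie above the 3 white ones, black 1 is the highest point, and LTF shows the widest spread within black skin, 14.8 to 175 CPM.

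All 5 genes were thus higher in every black library than in any white library, which is the property they were chosen for. Of all 15778 genes tested, 3.81% had black libraries all above the white ones, and 4.99% had them all below. Black 1 was the highest of the 6 libraries for each of the 5, as it was for 30.3% of all genes tested. Leaving out black 1 cannot make groups overlap that lie apart, so the 5 genes stayed apart without it, beside 13.6% of all genes. In bulk skin, more gland cells in a sample and more RNA of these genes per cell cannot be told apart.

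The mix of secretions differed between libraries as well as their amount. The 5 genes together took 0.415%, 0.175% and 0.0698% of reads in black 1, 2 and 3, and 0.0152%, 0.00716% and 0.00431% in white 4, 5 and 6. MUCL1 made up 81.7%, 85.7% and 59.2% of those reads in the black libraries and 60.4%, 47.2% and 37.0% in the white ones. Per length, MUCL1 exceeded the prolactin-inducible protein homolog 9.82-fold, 6.81-fold and 2.05-fold in FPKM in black 1, 2 and 3, and 2.13-fold, 1.49-fold and 1.08-fold in white 4, 5 and 6. Black 3 thus resembled white 4 in this ratio, although both genes were several-fold higher in black 3.

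The prolactin-inducible protein homolog and PGLYRP1, by contrast, kept a similar proportion. Their FPKM ratio was 4.18, 4.99 and 5.87 in black 1, 2 and 3, and 7.52, 4.45 and 4.25 in white 4, 5 and 6, so the groups overlapped. Likeness of pattern was measured as the root mean square difference of log2 CPM over the 6 libraries, each gene taken relative to its own mean. By this measure that pair was the closest of the 10 pairs of members (0.31), and MUCL1 and mammaglobin-A were the least alike (1.61). The antibacterial pair did not keep a proportion. LTF was 0.413, 0.0723 and 0.136 of PGLYRP1 in FPKM in black 1, 2 and 3, and 0.0200, 0.0651 and 0.0976 of it in white 4, 5 and 6.

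White 4 separated the members. Relative to the mean of white 5 and 6, it was 3.57-fold for MUCL1, 2.04-fold for the prolactin-inducible protein homolog and 1.24-fold for PGLYRP1. It was 0.72 of that mean for mammaglobin-A, on 3 reads, and 0.32 of it for LTF. White 4 was therefore the highest white library for 3 of the 5 and the lowest for LTF.

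Relatives of each protein were examined next. Secretoglobins are small dimeric proteins that carry lipids and steroids, and in human skin glands mammaglobin-A pairs with a member of the 1D subfamily. Besides mammaglobin-A, 14 secretoglobin genes were in the table and 11 were tested. Mean expression was higher in black skin for 9 of the 11, with a median log2 fold change of 1.23 (0.02 over all genes tested). Without overlap, 2 of the 11 were higher and 0 lower in black skin, beside 3.81% and 4.99% of all genes tested. The mean was higher for 7 of the 11 without black 1, with a median log2 ratio of 0.65. The first was LOC102180194, a secretoglobin 1D and the gene next to mammaglobin-A, at 474, 78.3 and 123 CPM in black 1, 2 and 3, and 11.5, 54.3 and 21.7 CPM in white 4, 5 and 6. Its log2 fold change was 2.95 (SE 0.85). It did not pass edgeR's quasi-likelihood test after adjustment over all genes (unadjusted p = 0.0106), and DESeq2 called it. Its ratio of 7.72 was 3.45 without black 1. The other was LOC102169695, described as a chain of major allergen I (the protein known from cat dander), at 547, 204 and 153 CPM against 119, 56.9 and 41.5 CPM, a ratio of 4.16 that was 2.47 without black 1.

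White 4 was the highest white library for 9 of the 11 genes, beside 39.7% of all genes tested, and lay above the lowest black library for 8, beside 83.8% of all genes tested. LOC102191453, described as a secretoglobin 2B, was at 3146 CPM in white 4, above the 1624, 644 and 376 CPM of black 1, 2 and 3, and at 353 and 273 CPM in white 5 and 6. Summed over the 14 genes, white 4 held 6078 CPM, close to the 6675 CPM of black 1, while white 5 and 6 held 1171 and 888 CPM and black 2 and 3 held 3690 and 1880 CPM. Mammaglobin-A, with 3, 2 and 5 reads in white 4, 5 and 6, had too few to tell whether it shared this pattern. Its neighbour LOC102180194 did not, at 11.5 CPM in white 4 against 54.3 and 21.7 CPM in white 5 and 6. Sequences were not compared, and if some of these genes are close copies, reads could have been split among them.

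Lipocalins are cup-shaped carriers of small hydrophobic molecules, and Bos d 2, the cow dander allergen, is made by skin glands of cattle. Of 10 goat genes described as Bos d 2, Equ c 1 or odorant-binding proteins, 8 were tested, and the mean of each was higher in black skin. Their median log2 fold change was 1.79. The mean of all 8 was still higher without black 1, with a median log2 ratio of 0.63. White 4 exceeded the lowest black library for 7 of them, near the 83.8% of all genes tested. Without overlap, 1 of the 8 was higher and 0 lower in black skin, beside 3.81% and 4.99% of all genes tested. That gene was LOC108633210, an odorant-binding protein-like gene, at 766, 618 and 258 CPM in black 1, 2 and 3, and 116, 48.3 and 32.4 CPM in white 4, 5 and 6. It had a log2 fold change of 3.06 (SE 0.61) and an adjusted p of 0.834 by edgeR's quasi-likelihood test. The Bos d 2 gene LOC102186944 overlapped, at 2334, 446 and 326 CPM against 407, 262 and 162 CPM, and its ratio of 3.74 was 1.40 without black 1. Reads could have been split among any close copies in this family too.

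**Figure D2:**
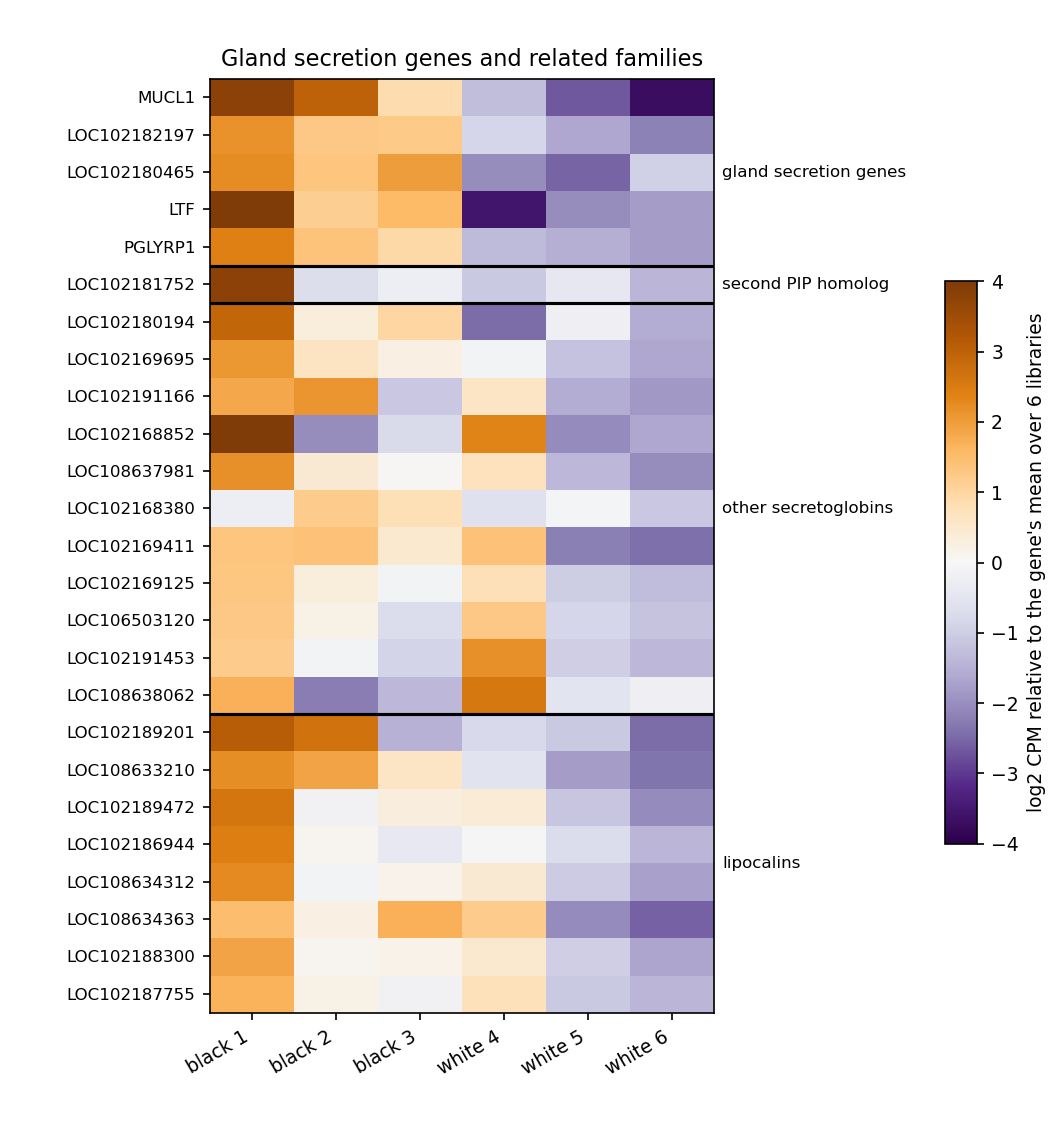
Log2 CPM of each tested gene relative to its own mean over the 6 libraries, for the gland secretion genes and for related genes by family, with 1 column per library. The gland secretion genes are high in black 1 to 3 and low in white 4 to 6, whereas white 4 is the highest white library for 9 of the 11 other secretoglobins, as for LOC102191453 at 3146 CPM.

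The relatives of the other members were few. A second prolactin-inducible protein homolog, LOC102181752, is the adjacent gene. It stood at 152 CPM in black 1 but at 6.95 and 9.34 CPM in black 2 and 3, within reach of the 5.23, 8.21 and 4.25 CPM of white 4, 5 and 6. It made up 27.6% of the reads of the pair in black 1, 3.06% and 4.21% in black 2 and 3, and 9.38%, 22.0% and 17.3% in white 4, 5 and 6. Its ratio of 9.51 was 1.38 without black 1. Because reads could be split between copies, the pair was also summed, giving 551, 227 and 222 CPM in black skin and 55.8, 37.4 and 24.6 CPM in white skin, which again did not overlap. PGLYRP3 and PGLYRP4, epidermal members of the peptidoglycan recognition family, overlapped between groups, with log2 fold changes of 0.35 (SE 0.68) and -0.23 (SE 0.60). Among transferrins, serotransferrin (LOC102172205) overlapped at a log2 fold change of 0.36 (SE 0.56), and melanotransferrin (MELTF) was at 5.17, 4.23 and 5.88 CPM against 2.39, 3.29 and 3.68 CPM. Among mucins, MUC1 overlapped, and MUC15, a membrane mucin, was lower in every black library, at 5.88, 19.99 and 31.3 CPM against 34.7, 42.0 and 39.3 CPM.

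In the fit across all genes, edgeR's quasi-likelihood test called 0 of 15778 genes at an adjusted p below 0.05, with 536 genes (3.40%) below an unadjusted p of 0.05. DESeq2 called 78 of 15732 genes (0.496%), and limma-voom called 0. No gene in the gland and cell type lists below passed edgeR's test, so they are described by their values. Over the 14 lists, which name 310 genes without the members, 272 were in the table and 206 were tested. Of these, 16 were higher in every black library than in any white one and 16 were lower in every one, the background being 3.81% and 4.99%.

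Other secretions of sweat and related skin glands more often had a higher than a lower mean in black skin. Of 37 listed, 28 were in the table and 18 were tested, and 15 had a higher mean in black skin, beside 53.0% of all genes. The median log2 fold change was 0.68. Without overlap, 3 were higher and 3 lower in black skin, beside 3.81% and 4.99% of all genes tested. Without black 1 the mean was higher for 11 of the 18, beside 49.6% of all genes, and the median log2 ratio was 0.20. The 3 higher genes were the 1D secretoglobin LOC102180194 described above, ABCC11 and CHI3L1. ABCC11, a transporter of apocrine glands whose activity determines human axillary odour and earwax type, was at 189, 25.6 and 42.9 CPM in black 1, 2 and 3 and at 10.97, 8.62 and 5.45 CPM in white 4, 5 and 6. Its log2 fold change was 3.36 (SE 0.79), its ratio 10.3, and 4.10 without black 1. ABCC11 did not pass edgeR's quasi-likelihood test after adjustment (unadjusted p = 0.00378), and DESeq2 called it higher. The chitinase-like protein CHI3L1 was at 122, 52.8 and 47.5 CPM against 33.7, 39.8 and 42.5 CPM.

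Abundant secretions that many tissues make showed little separation. Apolipoprotein D (APOD), a lipocalin of apocrine secretions, ranged from 425 to 6064 CPM in black and from 380 to 1272 CPM in white libraries, and its ratio of 3.53 became 1.10 without black 1. Clusterin (LOC102182127) and cystatin C (LOC102184534) overlapped, with log2 fold changes of 0.21 (SE 0.31) and 0.15 (SE 0.38). Cystatin M (CST6), a protease inhibitor of sweat gland and epidermis, went the other way, at 59.3, 57.7 and 69.0 CPM in black skin and 501, 198 and 212 CPM in white skin. Its log2 fold change was -2.29 (SE 0.39), with an adjusted p of 0.834 by edgeR's quasi-likelihood test, and DESeq2 called it lower. MUC15 and the iron-carrier-binding lipocalin LCN2 were the remaining genes lower in every black library.

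The listed genes of gland epithelium did not stand higher as a whole. Which cells of whole skin supplied their reads was not tested, so the list does not measure the amount of gland. Of 33 tested genes of secretory and ductal epithelium, 15 had a higher mean in black skin and the median log2 fold change was -0.05. Without overlap, 4 were higher and 1 lower in black skin, beside 3.81% and 4.99% of all genes tested. Without black 1 the mean was higher for 18 of the 33, and the median log2 ratio was 0.04. Keratins of simple epithelium overlapped between groups: KRT7 had a log2 fold change of -0.11 (SE 0.19), KRT8 of 0.25 (SE 0.30) and KRT19 of 0.98 (SE 0.55). The transcription factors SPDEF, FOXA1, BHLHA15 and XBP1, all known from secretory cells, were higher in every black library. SPDEF, an Ets factor of mucus-secreting cells, was at 24.0, 4.37 and 10.6 CPM against 2.90, 3.34 and 3.26 CPM, a ratio of 4.11 that was 2.37 without black 1. FOXA1, a pioneer factor of gland epithelium, was at 36.4, 11.7 and 15.01 CPM against 10.3, 4.40 and 5.10 CPM, a ratio of 3.19 that was 2.03 without black 1. BHLHA15, also called MIST1, which scales up the secretory apparatus, was at 7.73, 1.65 and 1.77 CPM against 0.80, 0.59 and 0.21 CPM, a ratio of 6.99 that was 3.22 without black 1. XBP1, a factor of the endoplasmic reticulum response, had a smaller log2 fold change of 0.69 (SE 0.26). KRT77, a keratin of the sweat duct in humans, was lower in every black library, at 12.3, 2.72 and 10.1 CPM against 79.5, 34.9 and 20.7 CPM, and DESeq2 called it lower.

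The lists for salt and water transport, contraction and growth signals of glands gave no shift of the same kind with all libraries included. In the transport list 24 genes were tested, 12 had a higher mean in black skin, and the median log2 fold change was 0.01. Without overlap, 1 was higher and 1 lower in black skin, beside 3.81% and 4.99% of all genes tested. Without black 1 the mean was higher for 16 of the 24, and the median log2 ratio was 0.15. The water channel AQP5 was at 0.496 CPM in black 1 and between 7.78 and 15.1 CPM in the other 5 libraries. The myoepithelial list shares several genes with smooth muscle, and which cells of the skin supplied their reads was not tested. In this list 6 of 12 tested genes had a higher mean and all groups overlapped. Without black 1, 0 of the 12 were higher and 4 were lower without overlap, beside 13.6% and 14.5% of all genes tested. Among hormone receptors and ectodysplasin signals, 7 of 19 tested genes had a higher mean. Without overlap, 0 were higher and 3 lower (EDA2R, FOXQ1 and TNFRSF19), beside 3.81% and 4.99% of all genes tested. The receptor EDA2R had a log2 fold change of -1.86 (SE 0.47).

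**Figure D3:**
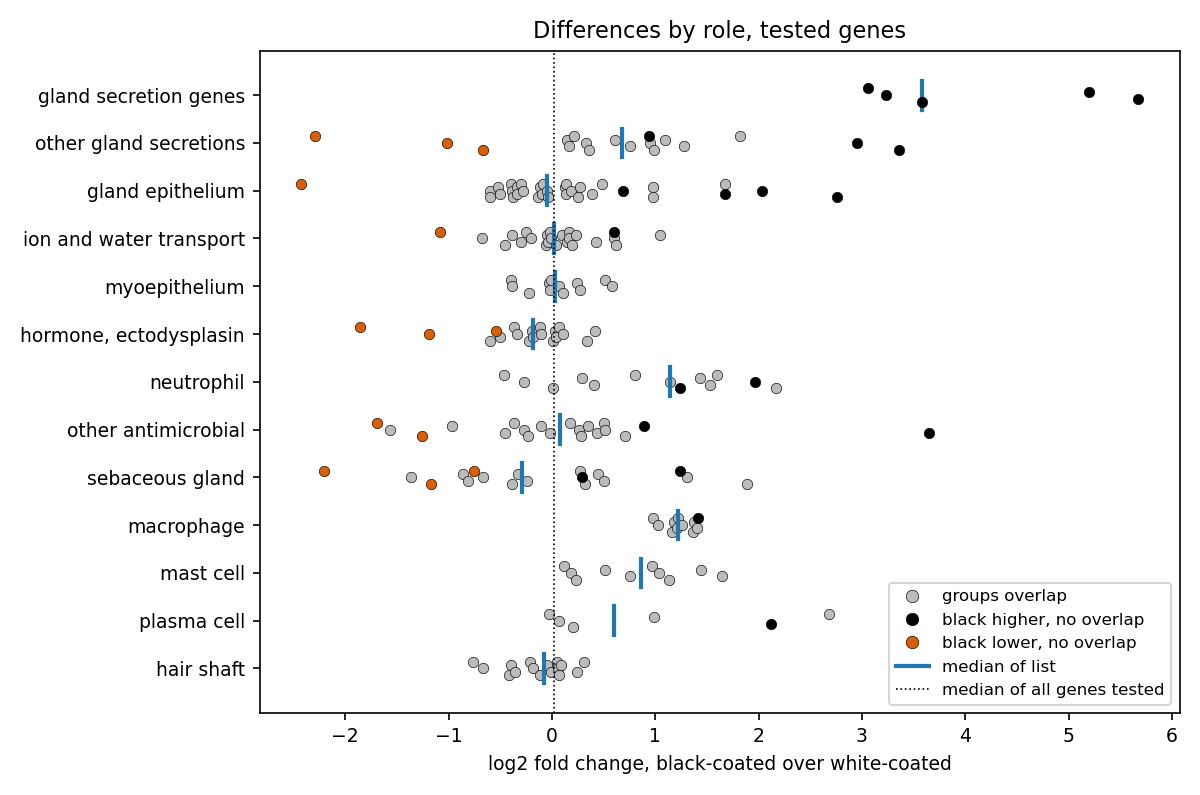
Log2 fold change, black-coated over white-coated, of the tested genes in the gland secretion set and the lists by role. Of the 14 lists, the milk protein list and the salivary, nasal and lacrimal list are not shown. Black points mark genes higher and orange points genes lower without overlap, with a blue line at each list's median and a dotted line at the median of all genes. The gland epithelium, transport and myoepithelium medians lie at -0.05, 0.01 and 0.03, against 0.68 for other sweat gland secretions.

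Genes of other glands were mostly absent or not higher. Of 13 milk protein and milk fat globule genes, 5 were tested and 2 had a higher mean, and the milk proteins CSN1S1, CSN1S2 and LALBA had 0 reads in all 6 libraries. Of 21 salivary, nasal and lacrimal genes, 11 were in the table, 4 of these had 0 reads, and the single tested gene, FCGBP, was lower in black skin, at 7.30, 2.08 and 1.21 CPM against 32.5, 23.2 and 10.6 CPM. Sebaceous genes were mixed, with 8 of 18 tested genes higher in mean and a median log2 fold change of -0.29. Without overlap, 2 were higher and 3 lower in black skin, beside 3.81% and 4.99% of all genes tested. Without black 1 these counts were 3 and 8, beside 13.6% and 14.5% of all genes tested. The desaturase SCD, an enzyme of sebum lipid synthesis, was at 262, 167 and 269 CPM in black skin against 100.2, 111 and 84.0 CPM, and DESeq2 called it higher. PLIN2, a lipid droplet coat protein also found on milk fat globules, was lower at a log2 fold change of -1.26 (SE 0.30).

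Because LTF and PGLYRP1 are also neutrophil granule proteins, neutrophil genes were set beside them. Of 32 listed, 28 were in the table, 13 were tested, 11 of these had a higher mean in black skin, and the median log2 fold change was 1.14. Of the 13, 2 were higher and 0 lower in black skin without overlap, beside 3.81% and 4.99% of all genes tested. Without black 1 the mean was higher for 6 of the 13, and the median log2 ratio was -0.13. In that setting 2 were higher and 1 lower without overlap, beside 13.6% and 14.5% of all genes tested. Granule genes were divided. Azurocidin (AZU1), myeloblastin (PRTN3), cathepsin G (LOC102174648), MMP8, OLFM4, BAC5 and the cathelicidins LOC102170003 and LOC102181444 had 0 reads in all 6 libraries, and myeloperoxidase (MPO) had 1 read in all. Other granule genes were detected and overlapped between groups. BPI, a bactericidal granule protein, was at 27.8, 11.1 and 0.433 CPM in black 1, 2 and 3 against 5.40, 15.5 and 11.1 CPM. Neutrophil elastase (ELANE) was at 3.90, 0.931 and 0.173 CPM against 1.02, 0.939 and 0.849 CPM, and the gelatinase MMP9 at 4.25, 1.15 and 1.95 CPM against 0.739, 1.23 and 0.425 CPM. Granule transcripts are made in bone marrow, so low levels of them in tissue do not measure the number of mature neutrophils. S100A9, a protein abundant in mature neutrophils, was at 14.4, 4.01 and 2.98 CPM in black 1, 2 and 3 against 2.27, 1.94 and 1.20 CPM, a log2 fold change of 1.97 (SE 0.67), and its ratio of 3.95 was 1.94 without black 1.

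The receptors of mature neutrophils gave a divided picture. CXCR2 overlapped, at 8.01, 7.74 and 13.97 CPM against 8.13, 8.86 and 5.38 CPM. The integrin ITGAM was at 48.4 CPM in black 1 and between 3.33 and 9.03 CPM in the other 5 libraries, and ITGB2 likewise at 57.6 CPM against 7.18 to 13.3 CPM. Summed over the list, black 2 and 3 held 83.2 and 61.0 CPM and white 4, 5 and 6 held 73.1, 74.2 and 66.7 CPM. Without black 1, LTF was 12.6-fold and PGLYRP1 6.45-fold above the white mean. The part of neutrophils in these levels was not tested.

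**Figure D4:**
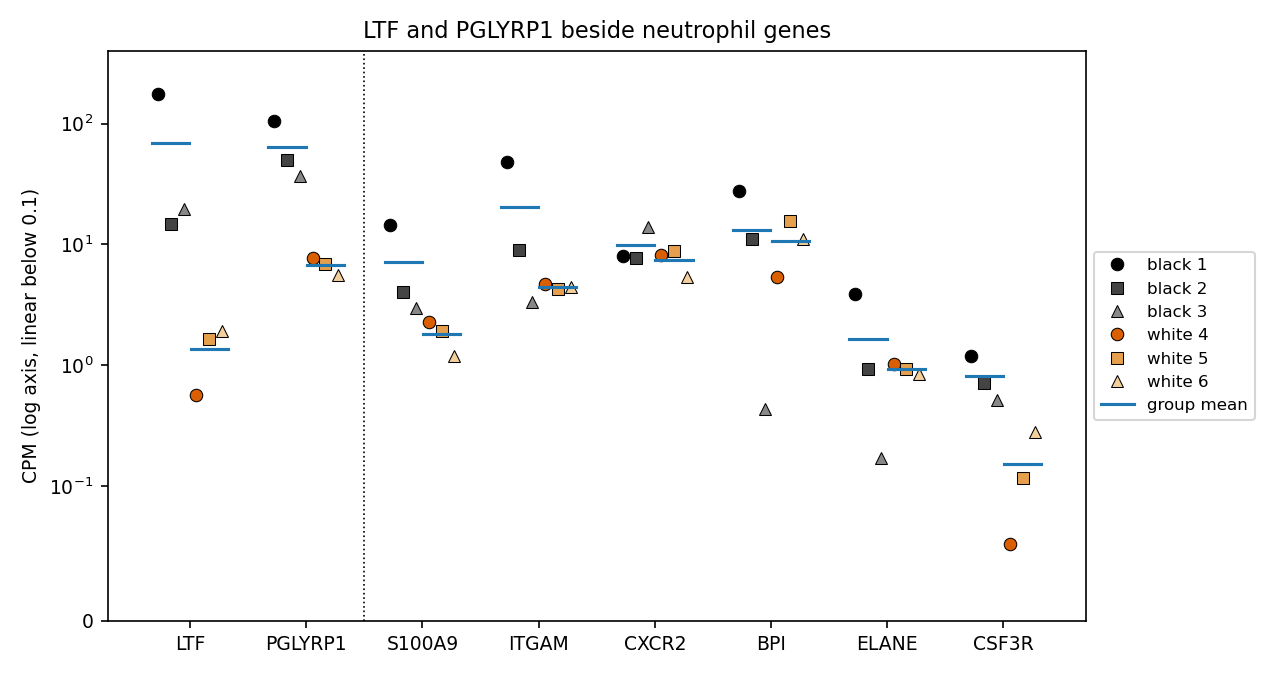
CPM of LTF, PGLYRP1 and 6 neutrophil genes in each library, on an axis that is logarithmic above 0.1 and linear below, with blue lines at group means. LTF and PGLYRP1 separate the groups, while ITGAM stands high in black 1 alone, at 48.4 CPM, and CXCR2 overlaps.

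Other antimicrobial and bacterial recognition genes showed no shared direction, with 10 of 20 tested genes higher in mean. Without overlap, 2 were higher and 2 lower in black skin, beside 3.81% and 4.99% of all genes tested. The lipopolysaccharide-binding protein LBP was at 4.39, 2.36 and 0.865 CPM against 0, 0.117 and 0.495 CPM, a ratio of 12.4 that was 7.90 without black 1. CD14, its partner receptor, was at 96.4, 49.6 and 41.5 CPM against 31.6, 36.7 and 32.7 CPM. Ribonuclease 7 (LOC102170238) and NOS2 were lower in every black library. All 11 tested macrophage genes and all 10 tested mast cell genes had a higher mean in black skin, with medians of 1.22 and 0.86, and black 1 was the highest library for 11 and 9 of them. Without black 1 the mast cell direction turned: the mean was higher for 3 of the 10 and the median log2 ratio was -1.12. In that setting 5 of the 10 were lower in black skin without overlap, beside 14.5% of all genes tested, and 0 were higher. For macrophage genes the mean without black 1 was higher for 10 of the 11, with a median of 0.31, although the list sum of black 3 (159 CPM) lay below those of the white libraries (262 to 270.4 CPM). Of 6 tested plasma cell genes, 5 had a higher mean. Without overlap, 1 was higher and 0 lower in black skin, beside 3.81% and 4.99% of all genes tested. That gene, IRF4, was at 4.32, 6.45 and 7.22 CPM against 1.31, 0.997 and 1.84 CPM, and which cells supplied its reads was not tested. The plasma cell list sum overlapped, at 285, 672 and 861 CPM in black 1, 2 and 3 against 623, 494 and 535 CPM in white 4, 5 and 6. The part of these cell types in the levels of the 5 secretion genes was not tested.

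Neighbouring genes in the goat reference order (assembly ARS1.2, used for names and order only) were compared with each member. LOC102184404, described as a putative TPRXL protein and lying next to MUCL1, was itself abundant, at 4172, 1182 and 1647 CPM in black 1, 2 and 3 and at 658, 612 and 360.1 CPM in white 4, 5 and 6. Its groups did not overlap, with a log2 fold change of 2.10 (SE 0.53), and the ratio of 4.29 was 2.60 without black 1. It did not pass edgeR's quasi-likelihood test after adjustment (unadjusted p = 0.00546). LOC108636093, on the other side of MUCL1, had 77, 287 and 15 reads in black skin and 8, 0 and 0 in white skin. USP44, the next gene beyond LOC102184404, held at most 6 reads in any library. Beside the mammaglobin gene, the 1D secretoglobin shared the direction, and ASRGL1, a peptidase gene on the other side, overlapped, at 147, 59.5 and 27.8 CPM against 27.9, 29.2 and 29.4 CPM.

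The neighbours of LTF and PGLYRP1 were low or similar between groups. LRRC2, RTP3 and CCRL2 beside LTF overlapped, and LOC108633346, which overlaps LTF in the annotation, had 2 reads in all. CCDC61 overlaps PGLYRP1 in the annotation. It averaged 17.7 ± 0.37 CPM in black skin against 15.7 ± 0.17 CPM in white skin (SD, n = 3 each), and since the sources used here do not say whether counting used strand, reads in the shared stretch cannot be told apart.

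Genes with the pattern most like the mean of the 5 members were sought among genes averaging at least 1 CPM. This likeness uses the same libraries that chose the members, so it describes these libraries only. The 10 nearest were a serpin B3 gene (LOC102184299, root mean square difference 0.60 on the log2 scale), the odorant-binding protein-like gene LOC108633210 (0.68), ABCC11 (0.70), AQP8 (0.72), a ceruloplasmin gene (LOC102172204, 0.76), ACSM5 (0.81), BHLHA15 (0.86), LOC102175184 (0.87), B4GALNT2 (0.91) and PLXNC1 (0.92). Of these, LOC108633210, ABCC11 and BHLHA15 also stand among the relatives and lists above.

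The groups of each of these genes were apart, which their choice by likeness to the members favours. AQP8, a water and peroxide channel, was at 22.5, 4.58 and 7.14 CPM in black skin against 2.27, 1.17 and 0.778 CPM. The ceruloplasmin gene, whose product is a copper-carrying ferroxidase, was at 79.3, 15.7 and 7.05 CPM against 3.87, 2.29 and 2.83 CPM. The serpin B3 gene, a protease inhibitor of epithelia, was at 6.52, 1.79 and 1.95 CPM against 0.341, 0.411 and 0.354 CPM. Leaving out black 1 took the ratios of AQP8, the ceruloplasmin gene and the serpin B3 gene from 8.11, 11.4 and 9.28 to 4.16, 3.80 and 5.07. PLXNC1, a semaphorin receptor, was even within both groups, at 28.6, 21.5 and 30.1 CPM against 5.97, 4.34 and 4.81 CPM.

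Members differed in their nearest genes. The prolactin-inducible protein homolog and PGLYRP1 were each other's nearest gene (0.31). Next came ACSM5, a mitochondrial acyl-CoA synthetase, for the prolactin-inducible protein homolog (0.31), and the serpin B3 gene for PGLYRP1 (0.33). LOC108633210 was among the 3 nearest of MUCL1, the prolactin-inducible protein homolog and PGLYRP1. Mammaglobin-A was nearest to C2CD4B (0.50), CALB2 (0.52) and PLXNC1 (0.62). MUCL1 and LTF had no close match: their nearest genes were LOC108636093 at 1.05 and LOC102169513, a gene with no description, at 0.93.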

How the data were processed

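RNA from 6 skin samples (3 per coat region, grouped by the labels' region) was sequenced. The authors deposited read counts per transcript and FPKM values (per transcript length and library size), per the file headers. Bowtie2 2.0.6, HISAT2 and Cufflinks were used, per the submitters' processing notes. For the counting program, genome build and strand setting, nothing is given in the sources used here. Of 53266 rows, 189 without a gene name (0.00376% to 0.0675% of reads) and 1770 of transfer RNA (0.000242% to 0.000467%) were left out. The transcript row with the largest total stood for each gene, since transcripts repeat the gene's count, while FPKM was summed over a gene's rows.

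Counts were scaled with TMM factors (0.872 to 1.12) and tested with edgeR 4.0.16 in R 4.3.3 (quasi-likelihood, genes kept by filterByExpr, Benjamini-Hochberg adjustment over 15778 genes, threshold 0.05), which was tested on simulated data. The biological coefficient of variation was 37.3%, which sets how small a difference 3 libraries per group can show. DESeq2 1.42.0 and limma 3.58.1 were alternatives. Log2 fold changes are black over white. The 5 members, the lists by role (with 27 genes found by description) and the families were chosen with earlier results of these data known, and the families after the table was seen. Named genes were the members, the nearest profiles (10 to the mean, 3 to each member; prior count 1), neighbours 2 on each side, and of each list those without overlap and the most abundant. Named genes outside this rule (such as KRT8, AQP5, MUC1, LCN2, the milk proteins with 0 reads and some neutrophil genes) were chosen after their values were seen.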

Additional observations from a re-analysis of the deposited data

How the results depend on the processing

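All 5 gland secretion genes kept black libraries above white ones in each of the 12 alternatives that give this count. These are DESeq2 size factors, library totals, upper-quartile scaling, the median transcript row, deposited FPKM, black 2 as the only black library and each of the 6 libraries left out. Leaving libraries out cannot make groups overlap that lie apart, so those settings could not have changed the count. It is also the property the genes were chosen for, so the count is a description only. The log2 ratios of the 5 genes moved by more than the replicate spread for LTF alone: from 5.66 to 3.65 without black replicate 1, and to 3.43 with the libraries that hold Y-linked reads only. The number of genes called was 0 with edgeR and 78 with DESeq2, and leaving out 1 library gave 0 to 16, with 16 without black 1, 6 without black 2 and 1 without white 4. The number of list genes higher in black without overlap was 16, and 20 to 41 with 1 library left out, where fewer libraries make non-overlap easier. It was 31 without black 1, 41 without black 2, 41 without black 3, 37 without white 4, and 58 without black 1 and white 4 together, a setting chosen after seeing the data. The other 9 alternatives gave 14 to 21. No paired analysis was possible because the replicate numbers 1 to 3 and 4 to 6 are not shared between the groups. Depth limits mammaglobin-A most, with 10 reads in white skin. Group, body site and animal cannot be told apart in this design, and by the Y-linked reads sex may be partly mixed with group.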
